A study of Mus musculus with 8 samples.

Results

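The extracellular signal-regulated kinase ERK1, encoded by Mapk3, was followed together with 8 genes that restrain or report ERK activity, in the hippocampus of mice given the ATM blocker KU55933. The 9 genes, found by their symbols, were Mapk3, the phosphatase genes Dusp1, Dusp4, Dusp5 and Dusp6, the inhibitor genes Spry2, Spry4 and Spred1, and the transcription factor gene Etv5. They were 9 of 19532 named genes in the deposited table, with 25 of its 74764 transcripts, and all 9 passed the filter on low counts. Of the 9, 1 was called higher in KU55933 than in vehicle (Spred1) and 1 lower (Dusp4), against 21.6% of the 15463 genes tested across the transcriptome (6.91% higher and 14.6% lower). The largest difference lay inside Mapk3, where the estimated counts assigned to a transcript with another first exon were 9.71-fold higher in KU55933 while the sum over the gene did not pass the test.

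In neurons, growth factors and synaptic activity load the small GTPase Ras with GTP, which starts a relay of RAF, MEK and ERK kinases, and active ERK phosphorylates targets in the cytoplasm and the nucleus. The same signal raises the genes that end it. Dual-specificity phosphatases remove the activating phosphates from ERK, Sprouty and Spred proteins act further upstream between the receptor, Ras and RAF, and Etv5 is an ETS factor whose mRNA is widely read as a report of ERK output. In the hippocampus the pathway is best known for its part in synaptic plasticity and memory.

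The KU55933 group was 4 libraries of hippocampus from C57BL/6 KP mice of wild-type genotype, dosed through the nose at postnatal day 40 under anesthesia with this small-molecule blocker of the DNA damage kinase ATM. The vehicle group was 4 libraries from wild-type mice of the same strain and age given 4% DMSO in saline by the same route. The labels count the groups as 4 mice each and attach a dosage of 7.5 mg/kg to both. The sources used here do not say how long after dosing the tissue was taken. Every library is labelled hippocampus, although the protocol's input amounts of RNA are those of other brain regions.

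The KU55933 libraries held 34190440 to 37499003 estimated counts and the vehicle libraries 40586998 to 46630341. Across the 15454 tested genes with a transcript sequence, the log2 change fell with GC content, the share of G and C bases (Spearman's rho = -0.71, across genes, which share the 8 libraries and are not independent replicates). Changes are therefore also given with an offset that removes, library by library, the dependence on GC content and transcript length, under which 1.99% of genes were called. The slope on GC content was negative in every KU55933 library and positive in every vehicle library. The offset thus also removes any difference between the groups themselves that follows GC content. The summed level of 8 choroid plexus markers was 60.3 to 1247 CPM in KU55933, with libraries 1 and 2 at 1171 and 1247, and 54.7 to 115 CPM in vehicle. None of the 8 passed edgeR's test, and 1 was at 0 in at least 1 library. Markers of excitatory neurons summed to 5034 to 5914 CPM in KU55933 and 6318 to 7049 CPM in vehicle, with 3 of 5 called lower, and those of CA pyramidal neurons to 990 to 1188 against 1285 to 1389 CPM, with 4 of 7 lower and 1 higher. Markers of subcortical excitatory neurons summed to 154, 123, 90.2 and 154 CPM in the KU55933 libraries 1 to 4 and to 93.8 to 105 CPM in vehicle, with 2 of 6 called higher. Of the oligodendrocyte precursor markers 3 of 6 were called lower, and of the interneuron markers 2 of 7, with none higher. The summed levels of these lists overlapped between the groups. All these marker calls are without the offset described above. The part of these differences in the results below was not tested.

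ERK1 is one of a pair of closely related kinases at the end of the relay. Mapk3 had 138, 132, 136 and 139 library-size normalised counts (CPM) in the KU55933 libraries 1 to 4, against 141, 166, 137 and 150 CPM in the vehicle libraries 1 to 4. The groups overlapped, and the KU55933 libraries lay closer together than the vehicle ones. The means were 136 ± 3.10 CPM in KU55933 and 149 ± 13.0 CPM in vehicle (SD, n = 4 each), and the log2 change was -0.12 ± 0.07 (SE). By edgeR's quasi-likelihood test, adjusted over all genes by the Benjamini-Hochberg method, this did not pass (adjusted p = 0.246). With the offset the sign turned, to 0.28 (adjusted p = 0.137). Per kilobase of transcript, Mapk3 was the most abundant of the 9, at 77.0 CPM per kb in KU55933 and 84.0 in vehicle.

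Beneath that total its transcripts moved in opposite directions. The table listed 7 transcripts of Mapk3, of which 5 were tested, and both abundant ones code for protein. ENSMUST00000091328 had 49.9, 75.3, 47.3 and 28.3 CPM in the KU55933 libraries, against 1.25, 6.68, 4.23 and 8.31 CPM in the vehicle libraries. The lowest KU55933 library thus lay above the highest vehicle library. Means were 50.2 ± 19.3 CPM in KU55933 and 5.12 ± 3.07 CPM in vehicle (SD, n = 4 each), a log2 change of 3.28 ± 0.55 (SE, edgeR adjusted p = 0.0121 over 45338 transcripts). With the offset it was 3.66 ± 0.59 (edgeR adjusted p = 0.023), and leaving out any 1 library gave 2.96 to 3.59 with an adjusted p of 0.0122 to 0.0494. With replicate number as a block, ENSMUST00000091328 was not called.

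The main transcript, ENSMUST00000057669, moved the other way. It had 85.7, 53.6, 87.7 and 109 CPM in the KU55933 libraries, against 139, 159, 131 and 140 CPM in the vehicle libraries. Again no KU55933 library reached the lowest vehicle library. The log2 change was -0.79 ± 0.19 (SE, n = 4 per group, edgeR adjusted p = 0.0477), the call was lost in 6 of the 8 fits that left out 1 library, and with the offset the change was -0.17 (edgeR adjusted p = 0.692). Without KU55933 1 and 2, the libraries rich in choroid plexus markers, neither transcript was called, at 2.91 for ENSMUST00000091328 (edgeR adjusted p = 0.113) and -0.53 for ENSMUST00000057669 (adjusted p = 0.116).

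As a share of all Mapk3 counts, ENSMUST00000091328 took 36.2, 57.0, 34.7 and 20.3% in the KU55933 libraries 1 to 4, against 0.886, 4.01, 3.09 and 5.54% in the vehicle libraries 1 to 4. Every KU55933 library was above every vehicle library, and KU55933 2 was the highest. The mean share was 37.1% ± 15.1 in KU55933 and 3.38% ± 1.95 in vehicle (SD, n = 4 each, exact two-sided permutation test, p = 0.0286, the smallest that 70 arrangements can give). The share was examined after the transcript values had been seen, and adjusted over the 6 transcript shares tested the p was 0.0571. The estimated counts behind it were 1704, 2671, 1775 and 1004 for ENSMUST00000091328 in KU55933, against 57, 270, 174 and 335 in vehicle.

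**Figure D1:**
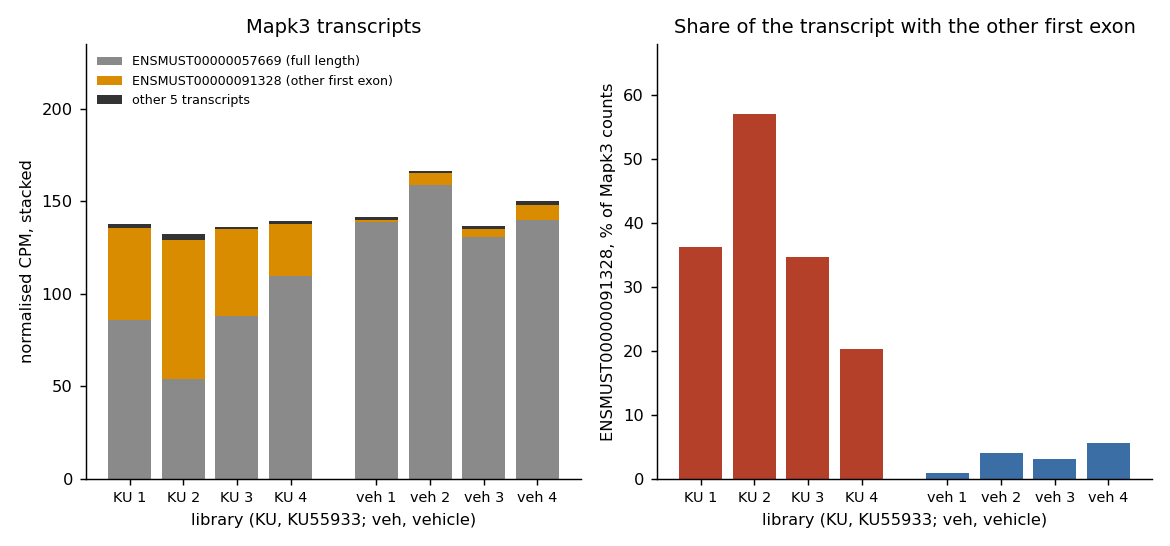
Left, normalised CPM of the Mapk3 transcripts in each library, stacked, and right, the share of Mapk3 counts assigned to ENSMUST00000091328, with the 4 KU55933 libraries left of the 4 vehicle libraries. The share runs from 20.3 to 57.0% in KU55933 and from 0.886 to 5.54% in vehicle, while the height of the stacks overlaps between the groups.

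The gene lies on the forward strand at chr7:126759601-126765819 in GRCm38, the build of GENCODE M21. The main transcript has 9 exons, 1800 bases and 380 codons. ENSMUST00000091328 has 8 exons and 1716 bases, begins 996 bases downstream, inside intron 1, and runs from there into exon 2. They share 1582 bases, so the split between them rests on 218 bases found only in the main transcript, which are 76.6% GC, and 134 bases found only in ENSMUST00000091328, which are 58.2% GC. Its annotated start codon is in frame, so the reading frame of 265 codons lacks the first 115 of the kinase. The missing codons include those for the glycine-rich loop and the lysine that hold ATP in protein kinases. The 134 bases lie in intron 1 of the main transcript, so reads of RNA that still holds this intron and reads of ENSMUST00000091328 cannot be told apart there in the estimated counts. The sequences shown are those that hold the start codons of the 2 reading frames, and of them exon 2 is shared by both transcripts. They are the coding part of exon 1 (chr7:126759646-126759818, 74.0% GC), with the start codon of the main transcript in capitals, and the coding part of exon 2 (chr7:126760731-126760913, 54.1% GC), with the start codon annotated for ENSMUST00000091328 in capitals.
Mapk3 exon 1 coding part: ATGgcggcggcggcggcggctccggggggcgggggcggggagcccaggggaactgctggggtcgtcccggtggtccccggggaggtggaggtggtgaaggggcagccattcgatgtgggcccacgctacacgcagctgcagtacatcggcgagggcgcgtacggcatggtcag
Mapk3 exon 2 coding part: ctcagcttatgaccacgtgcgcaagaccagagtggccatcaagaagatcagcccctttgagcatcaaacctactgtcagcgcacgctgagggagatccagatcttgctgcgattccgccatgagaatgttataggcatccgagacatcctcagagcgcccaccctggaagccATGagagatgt

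GC content moved with this result in 2 ways that were measured. The sequence unique to the main transcript is far richer in G and C than that unique to ENSMUST00000091328, and GC-rich genes were lower in KU55933. The slope of log2 level on GC content was -0.276, -0.343, -0.115 and -0.119 per 10 percentage points in the KU55933 libraries 1 to 4, against 0.134, 0.192, 0.269 and 0.256 in the vehicle libraries 1 to 4. The offset used the GC content of whole transcripts, 57.6 and 55.2% for the main transcript and ENSMUST00000091328, and not that of their own first exons. The part of GC content in the split was not tested.

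Of the 4 phosphatase genes, Dusp4 fell in KU55933 and the other 3 did not pass the test. Dusp1, Dusp4 and Dusp5 encode nuclear enzymes and Dusp6 a cytoplasmic one, and Dusp5 and Dusp6 act with high preference on ERK, whereas Dusp1 and Dusp4 also act on the stress kinases JNK or p38. Dusp4 had 14.0, 12.5, 12.4 and 13.3 CPM in the KU55933 libraries, against 18.5, 16.2, 15.2 and 20.4 CPM in the vehicle libraries. All KU55933 libraries were below all vehicle libraries, as in 15.9% of all genes. Its means were 13.0 ± 0.730 CPM in KU55933 and 17.6 ± 2.30 CPM in vehicle (SD, n = 4 each), 1.35-fold lower, with a log2 change of -0.43 ± 0.11 (SE, edgeR adjusted p = 0.0181). In this whole tissue, fewer cells of a type and less RNA per cell cannot be told apart.

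The transcripts of Dusp4 are 56.0% GC, and all tested genes were sorted by GC content into 10 bins of equal size. In its bin, of 55.8 to 58.0% GC, which also holds Mapk3 and Dusp5, the median log2 change was -0.35 and 41.5% of genes were called lower. With the offset, the Dusp4 change was -0.15 (edgeR adjusted p = 0.564). The call was also lost without vehicle 4 (adjusted p = 0.0616) and without KU55933 1 and 2 together (adjusted p = 0.0859).

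Dusp5, an ERK-specific nuclear phosphatase, has a GC content of 56.7%. Its change had the other sign from that of Dusp4 but did not pass, and the difference was not itself tested. It had 18.4, 13.8, 19.8 and 17.9 CPM in the KU55933 libraries, against 22.8, 10.9, 14.7 and 14.5 CPM in the vehicle libraries. Vehicle 1 was the highest of all 8 libraries and vehicle 2 the lowest, so the groups overlapped. The log2 change was 0.15 ± 0.21 (SE, n = 4 per group, edgeR adjusted p = 0.625), and 0.48 with the offset (adjusted p = 0.345). Without vehicle 1 it was 0.39 (edgeR adjusted p = 0.0699), and 0.76 with the offset (adjusted p = 0.0168). Leaving out any other library gave 0.33 to 0.55 with the offset, at an edgeR adjusted p of 0.365 to 0.624. Without vehicle 2 and with no offset the change was 0.0092 (edgeR adjusted p = 0.978).

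Dusp6, the cytoplasmic ERK phosphatase, had 45.1, 36.8, 53.9 and 45.8 CPM in the KU55933 libraries, against 61.4, 40.3, 48.2 and 41.8 CPM in the vehicle libraries. The highest library was again vehicle 1, and the groups overlapped. Its means were 45.4 ± 6.99 CPM in KU55933 and 47.9 ± 9.63 CPM in vehicle (SD, n = 4 each, log2 change -0.08 ± 0.15, SE, edgeR adjusted p = 0.725). With the offset the change was -0.15 (adjusted p = 0.675).

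Dusp1, an immediate early gene in many cell types, had 10.2, 10.8, 13.5 and 10.3 CPM in the KU55933 libraries, against 17.8, 7.50, 12.8 and 11.1 CPM in the vehicle libraries. The vehicle libraries spanned the whole KU55933 range. The log2 change was -0.14 ± 0.23 (SE, n = 4 per group, edgeR adjusted p = 0.688), and -0.07 with the offset (adjusted p = 0.912). Without vehicle 1 the sign turned, to 0.10 (adjusted p = 0.692).

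Dusp1 also has a pair of abundant coding transcripts that differ at the start of the gene. ENSMUST00000236661 took 70.7, 74.3, 69.5 and 74.2% of Dusp1 counts in the KU55933 libraries, against 56.8, 68.6, 41.3 and 19.7% in the vehicle libraries. Every KU55933 library was above every vehicle library, though vehicle 2 came within a small margin. The mean share was 72.2% ± 2.48 in KU55933 and 46.6% ± 21.1 in vehicle (SD, n = 4 each, exact two-sided permutation test, p = 0.0286, adjusted over the 6 shares p = 0.0571). Neither transcript was called by edgeR, at a log2 change of 0.46 (adjusted p = 0.616) for ENSMUST00000236661 and -1.23 (adjusted p = 0.196) for ENSMUST00000025025, and with the offset 0.55 (adjusted p = 0.614) and -0.91 (adjusted p = 0.469). All bases of ENSMUST00000236661, the one with the higher share in KU55933, lie in exons of ENSMUST00000025025, whose other 403 bases are 70.5% GC. The first exon of ENSMUST00000236661 begins 47 bases downstream and has 161 bases, against 563 in ENSMUST00000025025. It thus ends inside that longer exon, so its junction to the next exon is found in ENSMUST00000236661 alone of the pair. Its annotated start codon lies 579 bases into the longer reading frame. The first 193 codons are thus outside its reading frame, although part of their bases remains in the transcript. Over the 20 tested transcripts of the 9 genes, 1 was called higher and 1 lower, both of Mapk3, against 1.06% and 5.70% of all tested transcripts (6.76% in all). With the offset 1 of the 20 was called higher and none lower, against 1.05% and 1.01% (2.06% in all), and by this fit too the one called was ENSMUST00000091328 of Mapk3.

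The promoters of Dusp1 and Dusp5 are shown because they were the only ones, among the 6 genes whose windows were searched, with a match to a motif of a known ERK-regulated factor. The window was the 250 bases before the start in the RefSeq table (GRCm38.p6), with both strands searched. Mapk3, Dusp4 and Spry4 had no window there. For Dusp1 (chr17:26508473-26508722, reverse strand) the capitals mark a cAMP response element, TGACGTCA, whose first base is 143 bases before the start and which 1.55% of 32851 windows hold. For Dusp5 (chr19:53528895-53529144, forward strand) they mark a pair of adjoining CArG boxes, the motif of serum response factor, at 82 and 72 bases, and 1.47% of windows hold at least 1 CArG box.
Dusp1 promoter: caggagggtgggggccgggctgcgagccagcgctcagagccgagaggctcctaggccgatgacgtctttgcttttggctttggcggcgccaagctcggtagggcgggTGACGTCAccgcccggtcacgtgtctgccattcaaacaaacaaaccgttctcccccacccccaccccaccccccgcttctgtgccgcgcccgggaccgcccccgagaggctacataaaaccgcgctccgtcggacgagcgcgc
Dusp5 promoter: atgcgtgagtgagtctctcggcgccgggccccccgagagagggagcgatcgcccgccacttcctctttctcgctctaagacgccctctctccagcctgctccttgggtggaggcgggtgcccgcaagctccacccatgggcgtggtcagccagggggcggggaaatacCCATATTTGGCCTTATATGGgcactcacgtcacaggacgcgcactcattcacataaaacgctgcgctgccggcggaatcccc
No cAMP response element, CArG box or ETS site (CCGGAAGT) was found in the windows of Dusp6, Spry2, Spred1 and Etv5. The commoner GC box (GGGCGG), held by 32.7% of windows, was found in those of Dusp1, Dusp5 and Spred1. Etv5 had a pair of windows, of which that at chr16:22439571-22439820 held GC boxes and the other did not. Exons of Dusp1 and Dusp5 overlap those of Ergic1 and AC137853.2 on the opposite strand in GENCODE M21. The libraries were made with a stranded kit, and the sources used here do not say whether strand was used in the counting.

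Among the inhibitors, Spred1 rose in KU55933 and the Sprouty genes did not pass the test. Spred1 brings neurofibromin, the Ras inactivator, to the membrane, and its loss in people causes Legius syndrome. It had 197, 164, 182 and 148 CPM in the KU55933 libraries, against 168, 107, 118 and 106 CPM in the vehicle libraries. Vehicle 1 lay within the KU55933 range and the other vehicle libraries lay below it. Its means were 173 ± 21.1 CPM in KU55933 and 125 ± 29.3 CPM in vehicle (SD, n = 4 each), 1.39-fold higher, with a log2 change of 0.47 ± 0.15 (SE, edgeR adjusted p = 0.0496).

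The Spred1 call lay at the threshold. It was lost in 6 of the 8 fits that left out 1 library, with adjusted p up to 0.131, and was kept without vehicle 1, at a log2 change of 0.65 (adjusted p = 0.00246), and without KU55933 4 (adjusted p = 0.0383). With the offset the change was 0.26 (edgeR adjusted p = 0.36), and without KU55933 1 and 2 together it was 0.41 (adjusted p = 0.247). Its transcripts are 41.2% GC, in a bin of genes (31.9 to 41.9% GC) whose median log2 change was 0.24 and of which 26.3% were called higher.

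Spry2, a membrane-associated inhibitor of growth factor signalling to Ras, had 27.4, 24.4, 29.8 and 26.9 CPM in the KU55933 libraries, against 31.4, 36.3, 30.3 and 32.7 CPM in the vehicle libraries. All KU55933 libraries were below all vehicle libraries, although KU55933 3 and vehicle 3 were close. The means were 27.1 ± 2.22 CPM in KU55933 and 32.7 ± 2.60 CPM in vehicle (SD, n = 4 each), with a log2 change of -0.27 ± 0.09 (SE, edgeR adjusted p = 0.0509), just outside the threshold. It passed with DESeq2 (adjusted p = 0.0338), with no filter on low counts (edgeR adjusted p = 0.0399) and without KU55933 3 (edgeR adjusted p = 0.0489). No other fit that left out 1 library passed, with edgeR adjusted p up to 0.151. Without KU55933 1 and 2 together the change was -0.20 (edgeR adjusted p = 0.233).

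With the offset, Spry2 had the most negative change of the 9, at -0.40 ± 0.09 (SE, edgeR adjusted p = 0.0517). Its GC content of 46.2% put it in a bin of genes (44.4 to 46.5%) whose median log2 change was 0.17 and of which 0.583% were called lower, the opposite direction to its own.

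Spry4, the other Sprouty gene here, had 21.1, 17.6, 22.1 and 16.6 CPM in the KU55933 libraries, against 22.6, 13.7, 16.5 and 16.5 CPM in the vehicle libraries. Apart from vehicle 1, every vehicle library was below every KU55933 library. The log2 change was 0.16 ± 0.15 (SE, n = 4 per group, edgeR adjusted p = 0.476), with the offset it was 0.15 (adjusted p = 0.626), and without vehicle 1 it was 0.32 (adjusted p = 0.0825). Spry2 and Spry4 thus differed in sign, a difference that was not itself tested.

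Etv5, the ETS factor gene that reports ERK output, had 83.8, 69.9, 90.9 and 72.6 CPM in the KU55933 libraries, against 87.8, 69.6, 76.9 and 67.3 CPM in the vehicle libraries. The ranges lay over each other almost entirely. Its means were 79.3 ± 9.80 CPM in KU55933 and 75.4 ± 9.23 CPM in vehicle (SD, n = 4 each, log2 change 0.07 ± 0.11, SE, edgeR adjusted p = 0.658). The offset left it at 0.09 (adjusted p = 0.702).

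**Figure D2:**
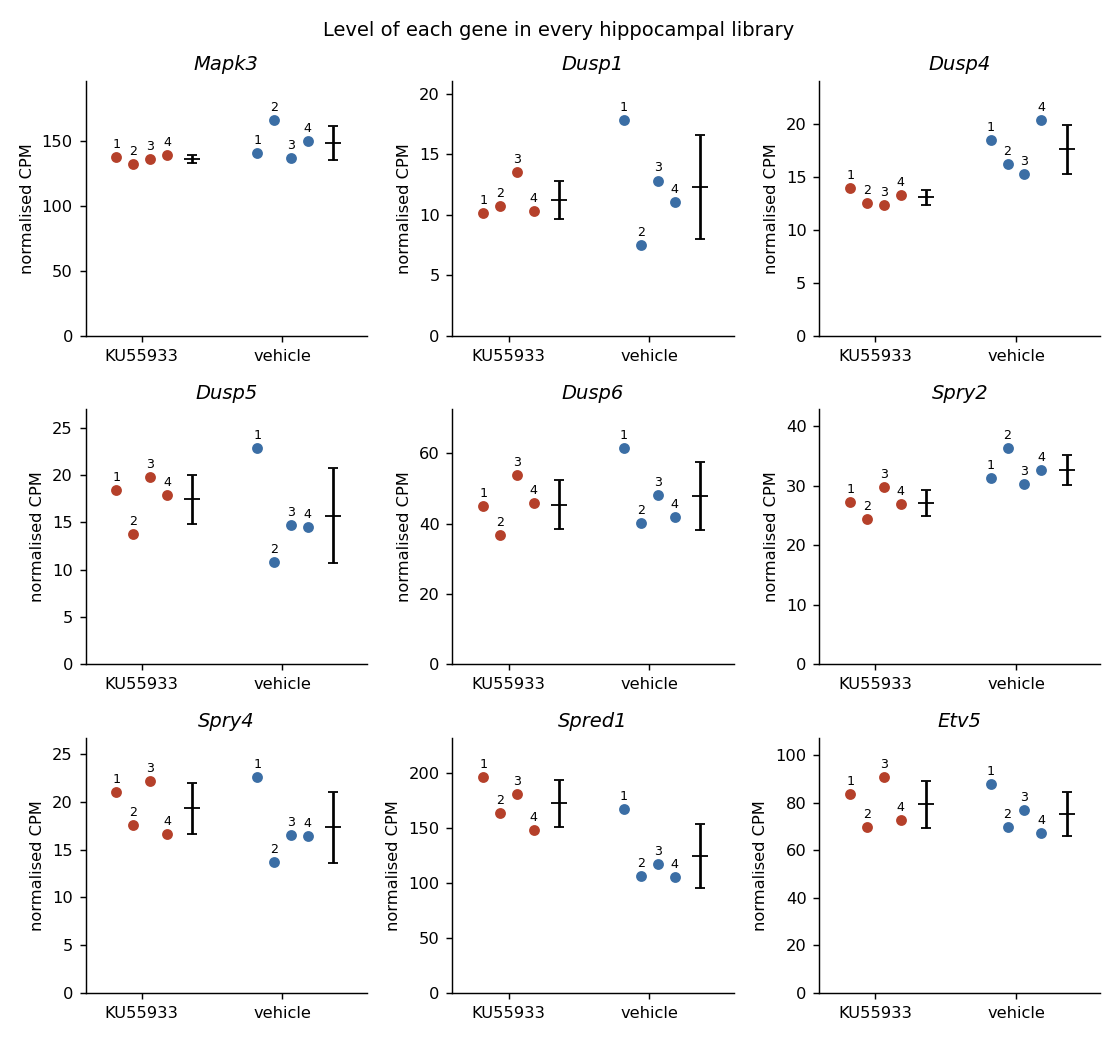
Normalised CPM of each gene in the 4 KU55933 libraries (red, left) and the 4 vehicle libraries (blue, right), numbered by replicate, with the mean and SD in black. Dusp4 and Spry2 are the genes whose groups do not overlap, and vehicle 1 is the highest vehicle library in 6 of the 9 panels.

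Over the 9 genes, 4 log2 changes were positive and 5 negative, with a median of -0.08 beside 0.01 for all tested genes. The groups did not overlap for 2 of the 9, beside 26.7% of all tested genes, and both were lower in KU55933. With the offset the median was 0.09, again beside 0.01 for all genes, and none of the 9 was called, beside 1.99% of all genes. Per kilobase of transcript, the order after Mapk3 was Spred1 (28.8 CPM per kb in KU55933 and 20.7 in vehicle), Etv5 (20.0 and 19.0) and Dusp6 (17.6 and 18.6). Spry2 followed at 13.0 CPM per kb in KU55933 and 15.7 in vehicle. Dusp5 (7.06 in KU55933 and 6.36 in vehicle), Dusp1 (6.43 and 7.07), Dusp4 (4.76 and 6.41) and Spry4 (4.07 and 3.64) made up the low end. In either group Etv5 differed from Dusp6, and Dusp5 from Dusp1, by less than the SD between libraries.

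**Figure D3:**
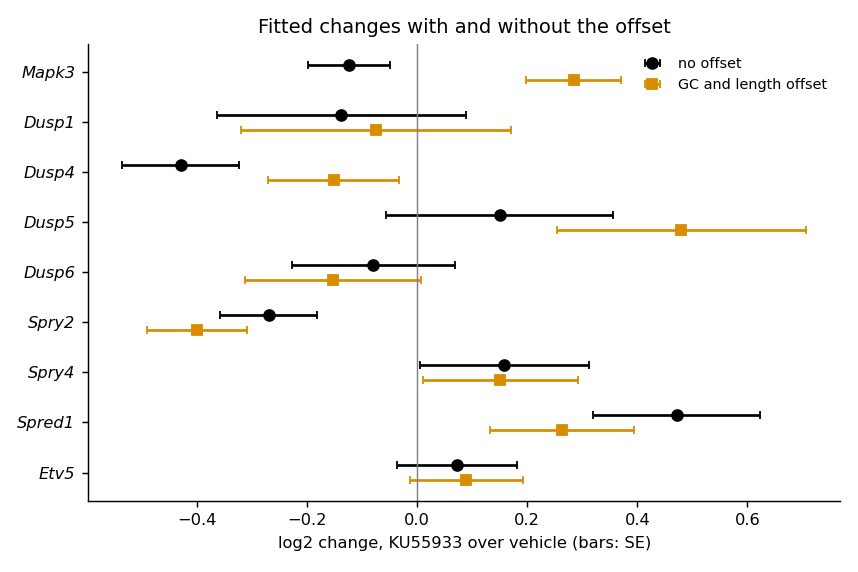
Fitted log2 change of each gene, KU55933 over vehicle, without an offset (black circles) and with the GC and length offset (orange squares), with bars of 1 SE. Mapk3 crosses zero with the offset, from -0.12 without it to 0.28 with it, and Spred1 and Dusp4 move toward zero.

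**Figure D4:**
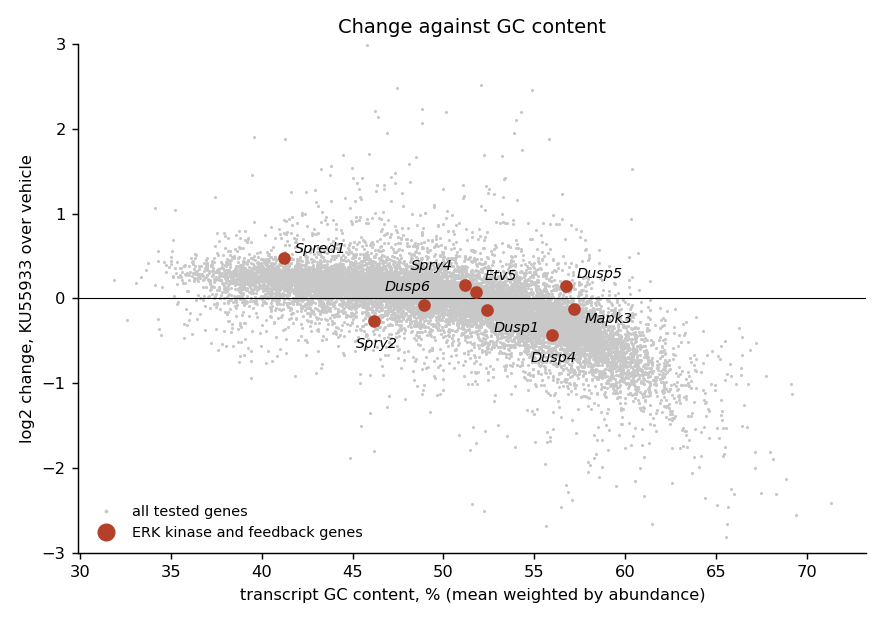
Log2 change of each tested gene (grey), KU55933 over vehicle, against the GC content of its transcripts, with the 9 genes in red. Genes of high GC content lie lower, and 25 genes beyond the axis limit of 3 on the log2 scale are not drawn. Dusp5 and Mapk3 lie above the median of their GC bin (-0.35) and Spry2 below that of its own (0.17).

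Within each group the 9 genes tended to be high or low in the same library. Vehicle 1 was the highest vehicle library for 6 of the 9 genes (66.7%), beside 33.2% of all tested genes, and KU55933 3 was the highest KU55933 library for 6 of the 9, beside 16.7% of all genes. The list of 20 activity-induced immediate early genes showed the same libraries on top, with vehicle 1 highest for 13 (65.0%) and KU55933 3 highest for 14 (70.0%). In KU55933 the lists of kindred genes did not share the library on top. Among 12 other Sprouty, Spred and feedback genes KU55933 1 was highest for 7 and KU55933 3 for 2, and among 9 other MAP kinase phosphatase genes they were highest for 4 and 3, while vehicle 1 was highest for 6 of the 12 and 5 of the 9. KU55933 2 was lowest of its group for 5 of the 9 and 10 of the 20, beside 30.9% of all genes, and vehicle 2 for 4 of the 9 and 14 of the 20, beside 23.5% of all genes. The kindred lists shared this lowest library in KU55933. There KU55933 2 was lowest for 7 of the 12 feedback genes and 7 of the 9 other phosphatase genes, and vehicle 2 for 4 of each. Vehicle 1 was also the deepest library and had the highest summed oligodendrocyte markers, at 7855 CPM beside 3467 to 5556 in the other vehicle libraries. The part of either in the pattern was not tested.

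The wider pathway was described by 8 lists of 114 genes, 110 of them tested. In KU55933, 6 rose, 21 fell and 83 did not pass edgeR's test, with a median log2 change of -0.05 beside 0.01 for all genes, of which 6.91% were called higher and 14.6% lower. With the offset 1 was called higher and 2 lower, beside 0.692% and 1.30% of all genes. The number that rose turned on the libraries used: it was 18 without vehicle 1 and 10 without KU55933 4, and 0 to 3 without any other library, whereas the number that fell stayed between 18 and 27. The same held for all genes, of which 1793 rose without vehicle 1, 1460 without KU55933 4 and 151 to 668 without any other library. Genes said below to rise or fall passed the test without the offset.

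At the top of the pathway, 3 of 15 tested receptor genes fell and none rose. Fgfr1, a fibroblast growth factor receptor, was at 125 ± 4.10 CPM in KU55933 and 165 ± 8.26 CPM in vehicle (SD, n = 4 each, log2 change -0.40, edgeR adjusted p = 0.00233). Fgfr3 (-0.39) and the platelet-derived growth factor receptor gene Pdgfrb (-0.47) were the others. With the offset none of these was called, at -0.18 for Fgfr1, -0.13 for Fgfr3 and -0.28 for Pdgfrb (edgeR adjusted p = 0.165, 0.532 and 0.146). Among 14 Ras and adaptor genes, 1 rose and 1 fell. Frs3, an adaptor of fibroblast growth factor and neurotrophin receptors, fell to 4.86 ± 0.875 CPM in KU55933, against 12.1 ± 1.51 CPM in vehicle (SD, n = 4 each, log2 change -1.31, edgeR adjusted p = 0.000537), and was still called with the offset, at -0.53 (adjusted p = 0.0281).

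Of 11 genes for Ras exchange factors and GTPase activators, 2 fell and none rose. The fall of the activator gene Rasal1 (-0.73) turned sign with the offset, to 0.012. In the relay itself, with 13 genes tested, Map2k2, which encodes MEK2, fell to 34.1 ± 6.27 CPM in KU55933, against 66.2 ± 5.55 CPM in vehicle (SD, n = 4 each, log2 change -0.96, edgeR adjusted p = 0.000807). Shoc2, a scaffold that helps to activate RAF, rose by 0.39 on the log2 scale, and neither was called with the offset (-0.21 and 0.19).

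In the list of kinases and factors downstream of ERK, which also holds kinase genes of the ERK family itself, 2 of 16 tested genes rose and 5 fell. The falls included Cic (-0.88), a repressor of Etv5-family genes that ERK signalling relieves, Srf (-0.86), the factor that binds CArG boxes, the kinase gene Mapk7 (-0.85), which encodes ERK5, and Mknk2 (-0.50), which encodes a kinase of translation factor eIF4E. With the offset none was called, Cic was at -0.07 and Mapk7 at -0.38, and Srf (0.28) and Mknk2 (0.080) changed sign. Among 9 other MAP kinase phosphatase genes, Dusp7, a cytoplasmic ERK phosphatase like Dusp6, fell to 41.7 ± 4.37 CPM in KU55933, against 67.8 ± 3.05 CPM in vehicle (SD, n = 4 each, log2 change -0.70, edgeR adjusted p = 0.000606), and with the offset the change was -0.29 (adjusted p = 0.107). Dusp8, named after its value was seen, was called higher with the offset alone (0.35, adjusted p = 0.0445).

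Of 12 other tested feedback and target genes, Errfi1, an inhibitor of the epidermal growth factor receptor, rose (0.43) and Phlda1 fell (-0.70), and with the offset neither was called, at 0.31 and -0.13. Of the 20 immediate early genes 7 fell and 1 rose. Junb, an AP-1 subunit, fell to 6.15 ± 2.08 CPM in KU55933, against 27.8 ± 8.97 CPM in vehicle (SD, n = 4 each, log2 change -2.18, edgeR adjusted p = 0.00199), and was still called with the offset, at -1.16 (adjusted p = 0.0409). Ier2 (-1.73), Gadd45g (-1.31) and Jun (-0.80) also fell, and with the offset their changes were -0.92, -0.62 and -0.55 with adjusted p of 0.068, 0.0512 and 0.0609 from edgeR. The other genes called lower, named after their values were seen, were Egr4 (-1.89), Jund (-1.81) and Per1 (-0.41), and with the offset they were at 0.03, -0.03 and 0.16, while the median of the list was -0.35 without the offset and -0.14 with it. Of the genes named from the lists, leaving out 1 library ended the call of Errfi1 in 7 of 8 fits, Fgfr3 in 6, Shoc2 in 5 and Mknk2 in 2, with edgeR adjusted p up to 0.122.

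**Figure D5:**
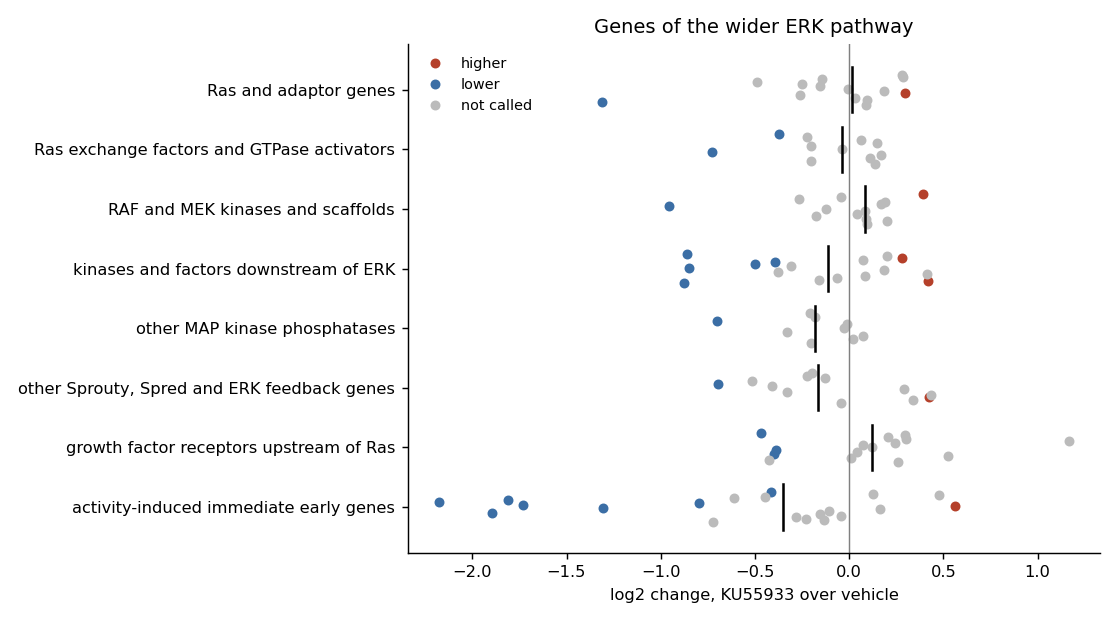
Log2 change, KU55933 over vehicle, of each tested gene in the 8 wider lists, with genes called higher in red, called lower in blue and not called in grey, and the list's median as a black bar. The immediate early genes have the lowest median, -0.35, and Junb lies farthest to the left at -2.18.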

How the data were processed

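Poly(A)-selected, stranded RNA-seq was read from 1 table of estimated counts per transcript, deposited by the authors as whole numbers without normalization and made with Salmon 1.4.0 per the submitters' notes. Per the submitters' processing notes, FastQC 0.11.9, DESeq2 1.32.0 and build GRCm39 were also used. Rows with no gene name (12, 0.0381% of counts) were left out. The 9 genes and all lists were chosen with earlier results of these data known.

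Counts were summed per gene symbol, filtered with filterByExpr and scaled by TMM. The groups were compared over 15463 genes by the quasi-likelihood F test of edgeR 4.0.16 (limma 3.58.1, R 4.3.3), which is two-sided, adjusted by the Benjamini-Hochberg method and called at 0.05, and likewise over 45338 transcripts. CPM are counts scaled to the TMM-adjusted library size. A log2 change is KU55933 over vehicle, and its SE is the change divided by the square root of F. The offset removed each library's spline of log2 CPM (prior count 2) on GC content (6 degrees of freedom) and length (5), from GENCODE M21 transcripts, which matched 99.7% of transcripts. Shares were compared by an exact permutation test (SciPy 1.17.1).

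Alternatives were RLE scaling, no filter, DESeq2 1.42.0, replicate number as a block, the offset and each library or KU55933 1 and 2 left out. Added after the data were seen were the offset for transcripts, the offset with each library left out, and transcripts without KU55933 1 and 2. The code was tested on simulated counts. Libraries were compared in pairs and none were duplicates.

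Named were the 9 genes, up to 4 called genes of each list with the smallest p, the most abundant transcript of each of the 9 and any that passed, and for each of the 9 the gene with the nearest profile. A few list genes that met this rule are counted but not reported here. P-values measure the spread between these libraries. Tables used pandas 2.3.3 and NumPy 2.4.6, and plots matplotlib 3.10.9, under Python 3.11.15.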

Additional observations from a re-analysis of the deposited data

Results flagged for a closer look

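Among 70 groups of 4 libraries examined, over the 9 genes, the named genes of the wider lists and the transcripts, 2 had a library far from the other 3, where chance alone flags about 1 group in 20. Frs3 was at 14.3 CPM in vehicle 3, beside 11.3 to 11.4 CPM in the other vehicle libraries. Ier2 was at 2.77 CPM in vehicle 2, beside 5.11 to 5.54 CPM in the other vehicle libraries. None of the 9 genes was flagged.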

How the results depend on the processing

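The 9 genes had 1 call higher and 1 lower in KU55933. The counts higher and lower were 0 and 2 with no filter, 1 and 2 with DESeq2, 0 and 0 with the GC and length offset, and 0 and 0 without KU55933 1 and 2. Leaving out 1 library gave 0 to 1 higher and 0 to 2 lower, and with the offset 0 to 2 and 0 to 1. For all genes (1069 and 2265) they were 444 and 2405 with no filter, 1823 and 2585 with DESeq2, 107 and 201 with the offset, 99 and 1012 without KU55933 1 and 2, and 151 to 1793 and 1444 to 2568 leaving out 1 library. For the wider lists (6 and 21) they were 2 and 24, 11 and 26, 1 and 2, 0 and 14, and 0 to 18 and 18 to 27 under these settings. For transcripts of the 9 genes (1 and 1) they were 1 and 0 with RLE scaling, no filter or the offset, 0 and 0 without KU55933 1 and 2, and 1 to 2 and 0 to 1 leaving out 1 library.

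Replicate numbers are shared by the groups. Deviations of same-numbered libraries correlated at 0.294, 0.0871, 0.0393 and 0.202, and those of differently numbered libraries at -0.222 to 0.114. Whether the numbers mark pairs cannot be told from these values, and the main fit left the libraries unpaired. With the replicate block, counts were 1 and 1 for the 9 genes, 1720 and 2723 for all genes, 16 and 25 for the lists, and 0 and 0 for transcripts (ENSMUST00000091328, 3.45, adjusted p = 0.0574). With block and offset they were 2 and 1 (Mapk3 0.29 and Dusp5 0.53 higher, Spry2 -0.40 lower), 358 and 458, and 6 and 6.

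Signs turned for Mapk3 with the offset (0.28), where leaving out KU55933 1 to 4 in turn gave 0.25, 0.25, 0.31 and 0.33 and vehicle 1 to 4 gave 0.29, 0.34, 0.23 and 0.28. Some fits leaving out 1 library turned them for Dusp1 (-0.31 to 0.10), Dusp6 (-0.17 to 0.068), Dusp5 ENSMUST00000038287 (-0.019 to 0.37) and Etv5 ENSMUST00000079601 (-0.090 to 0.19), and without vehicle 1 the offset gave 0.19 for Dusp1 and 0.00035 for Dusp6. Without KU55933 1 and 2, Dusp6 was at 0.056 and its ENSMUST00000020118 at 0.0055. With the offset, Dusp4 ENSMUST00000033930 was at 0.017. With the offset, and with the block as well, Rasal1 was at 0.012 and 0.018, Mknk2 at 0.080 and 0.082, and Srf at 0.28 and 0.30. The cause was not tested.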

Other observations

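For each of the 9 genes, the tested gene with the nearest profile over the 8 libraries was found by the root mean square difference of log2 CPM, each centred on its own mean. The nearest to Etv5 was Msn (0.0258), which encodes moesin, and to Dusp6 it was Snx33 (0.0312). Mapk3 was nearest to Arfgap2 (0.0332), Spry2 to Csdc2 (0.0459), Spred1 to Mtus1 (0.0572) and Spry4 to Slc7a2 (0.0592). Dusp5 was nearest to Klf4 (0.0837), the gene of a zinc-finger transcription factor, Dusp1 to Plekhh1 (0.0847) and Dusp4 to Ctdp1 (0.0936).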
